A study of Rattus norvegicus with 4 samples.

Results

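The miR-146 and miR-155 group comprised both arms of miR-146a, miR-146b and miR-155, taken by name, which were 6 of the 765 rat mature miRNAs in the small RNA-seq data. The arms are rno-miR-146a-5p, rno-miR-146a-3p, rno-miR-146b-5p, rno-miR-146b-3p, rno-miR-155-5p and rno-miR-155-3p. The study compared 4 groups with 1 library each: exosomes of hypoxic H9c2 cells, exosomes of normoxic H9c2 cells, hypoxic H9c2 cells and normoxic H9c2 cells. H9c2 cells are rat cardiomyoblasts, an established heart-derived line, and cells and exosomes were both collected at 48 h. RNA extraction is described with n = 4, and whether this means the 4 libraries or several cultures pooled in each is not stated. Hypoxic cells were kept in a chamber with an oxygen-absorbing pack and normoxic cells in air with carbon dioxide, both in medium with serum depleted of exosomes, and exosomes were pelleted from the filtered medium by ultracentrifugation. The design asks how low oxygen altered miRNAs in the cells and in the vesicles they release, and the same libraries also set exosomes beside their cells.

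Levels are RPM, reads that the authors scaled to the same total in every library. All values above 0 (100%) were whole multiples of 1 step per library within 0.1 step, and the smallest value was 10 steps. The step was taken as 1 read, and a miRNA under 10 reads is listed at 0, a limit of 0.753 to 0.961 RPM. The scale stood for 10404866 to 13285239 reads per library. miRNAs made up 0.881% of them in hypoxic exosomes and 0.115% in normoxic exosomes, against 26.9% in hypoxic cells and 51.0% in normoxic cells. Consequently, summed miRNA RPM in hypoxia was 7.69 times that in normoxia for exosomes and 0.528 times for cells, and ratios are also given scaled to the miRNA total of each library. Each group was 1 library, so differences in the sequencing data could not be tested against replicates, and p-values are left out. Intervals are 95% exact intervals that cover counting error only and treat each read as independent. Reads after PCR are not independent molecules, so these intervals may be too narrow even for counting error. The paper also measured randomly selected miRNAs by qRT-PCR in cells and in exosomes, and its primer list names miR-146a-5p. Those qRT-PCR values were not used here. In such bulk samples, fewer cells or vesicles that hold a miRNA and less of it in each cannot be told apart. Of 7 muscle and heart markers, against which the cell type was checked, 2 were identified in hypoxic cells (summed level 14.2 RPM) and 3 in normoxic cells (32.2 RPM), and miR-133a-3p, miR-133b-3p, miR-208a-3p and miR-208b-3p were listed at 0 in every library. Of 6 markers of blood and immune cells, 1 was identified in hypoxic exosomes (1.54 RPM) and 0 in normoxic exosomes, and 2 in each library of cells (1.58 RPM in hypoxia and 3.46 RPM in normoxia). These 6 are a short list that leaves out other miRNAs such as miR-486. It had 18.1 RPM in hypoxic and 3.54 RPM in normoxic exosomes, against 1.13 and 1.54 RPM in hypoxic and normoxic cells. The liver marker miR-122-5p had 15.1 RPM in hypoxic exosomes, 11.1 RPM in normoxic exosomes, 5.72 RPM in hypoxic cells and 14.9 RPM in normoxic cells. The endothelial marker miR-126a-3p had 1.62, 1.94, 78.4 and 134 RPM in the same order of libraries.

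miR-146 and miR-155 are textbook miRNAs of inflammation. NF-kB, the transcription factor that inflammatory signals switch on, raises transcription of the miR-146a and miR-155 genes, and in human monocytes miR-146a-5p was found to repress the adaptors TRAF6 and IRAK1 upstream of NF-kB, a negative feedback. miR-155 mostly acts in the opposite sense in immune cells, where in mouse it represses SOCS1, an inhibitor of cytokine signalling. From each hairpin precursor usually 1 arm, the guide, is kept in Argonaute, and the other arm is degraded. The guide finds mRNAs mainly through its seed, bases 2 to 8 from the 5′ end.

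The mature sequences are shown because the results turn on 2 nearly identical guides. They are from RefSeq on GRCr8, all 6 names matched, and capitals mark the seed.
rno-miR-146a-5p: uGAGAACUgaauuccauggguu
rno-miR-146b-5p: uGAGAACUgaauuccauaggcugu
rno-miR-155-5p: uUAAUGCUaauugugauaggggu
rno-miR-146a-3p: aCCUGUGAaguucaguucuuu
rno-miR-146b-3p: cCUAGGGAcucaguucuggug
rno-miR-155-3p: cUCCUACCuguuagcauuaac

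rno-miR-146a-5p and rno-miR-146b-5p carry the same seed, GAGAACU, which no other of the 693 mature rat miRNAs in that annotation holds. Counted from 1 at the 5′ end, they are identical over the first 17 bases and differ by G18A and U21C (miR-146a-5p first), and miR-146b-5p is 24 bases long against 22. The seeds of the other 4 arms are each held by that arm alone, so the 3p arms of miR-146a and miR-146b, which differ at 15 of 21 positions, are not seed relatives. On GRCr8, rno-miR-146a-5p lies at chr10:28350053-28350074 on the minus strand, within the long non-coding gene LOC134480673. rno-miR-146b-5p lies at chr1:255144874-255144897 on the plus strand, within the span of C1h10orf95, a protein-coding gene. rno-miR-155-5p lies at chr11:37261117-37261139 on the plus strand, within the non-coding host gene Mir155hg. Whether these positions are exonic or intronic was not analysed here. Reads of the 2 near-identical guides can be told apart only by bases after the 17th, and how the authors assigned such reads is not given in the sources used here.

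rno-miR-146a-5p was the most abundant of all miRNAs in hypoxic exosomes. It had 1551 RPM in hypoxic exosomes (19162 reads), 127 RPM in normoxic exosomes (1512 reads), 1253 RPM in hypoxic cells (16643 reads) and 2265 RPM in normoxic cells (23562 reads). Its rank was 1 of 144 identified miRNAs in hypoxic exosomes and 3 of 74 in normoxic exosomes, against 34 of 331 in hypoxic cells and 30 of 338 in normoxic cells. Thus a miRNA of high but not leading rank in cells stood at or near the top in exosomes. Its share of miRNA reads in exosomes was 17.6% in hypoxia (95% Clopper-Pearson interval 17.4% to 17.8%) and 11.1% in normoxia (10.6% to 11.7%). In cells it was 0.465% (0.458% to 0.472%) in hypoxia and 0.444% (0.438% to 0.449%) in normoxia.

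rno-miR-146b-5p, its seed relative, did not share that place. It had 33.4 RPM in hypoxic exosomes (412 reads), 2.11 RPM in normoxic exosomes (25 reads), 715 RPM in hypoxic cells (9493 reads) and 3010 RPM in normoxic cells (31315 reads). It was the most abundant of the 6 arms in normoxic cells, at rank 24 of 338, and stood at rank 46 of 331 in hypoxic cells, 25 of 144 in hypoxic exosomes and 47 of 74 in normoxic exosomes. Its share was 0.378% in hypoxic exosomes (interval 0.343% to 0.417%) and 0.184% in normoxic exosomes (0.119% to 0.271%), compared with 0.265% (0.260% to 0.271%) in hypoxic cells and 0.590% (0.583% to 0.596%) in normoxic cells. The intervals of normoxic exosomes and hypoxic cells overlap.

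The other 4 arms were scarce. rno-miR-155-5p, the guide of miR-155, had 14.5 RPM in hypoxic cells (192 reads) and 15.6 RPM in normoxic cells (162 reads) and was listed at 0 in both libraries of exosomes. rno-miR-155-3p, the passenger, was listed at 0 in all 4 libraries. rno-miR-146b-3p had 1.70 RPM in hypoxic exosomes (21 reads), 5.49 RPM in hypoxic cells (73 reads) and 22.4 RPM in normoxic cells (233 reads) and was listed at 0 in normoxic exosomes. rno-miR-146a-3p had 3.01 RPM in hypoxic cells (40 reads) and 6.34 RPM in normoxic cells (66 reads) and was listed at 0 in both libraries of exosomes. In total 3 of the 6 arms were identified in hypoxic exosomes, 2 in normoxic exosomes and 5 in each library of cells. The 6 arms summed to 18.0% of all reads of miRNAs in hypoxic exosomes and 11.3% in normoxic exosomes, against 0.739% in hypoxic cells and 1.04% in normoxic cells, and rno-miR-146a-5p alone supplied 97.8% and 98.4% of the group's reads in hypoxic and normoxic exosomes.

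**Figure D1:**
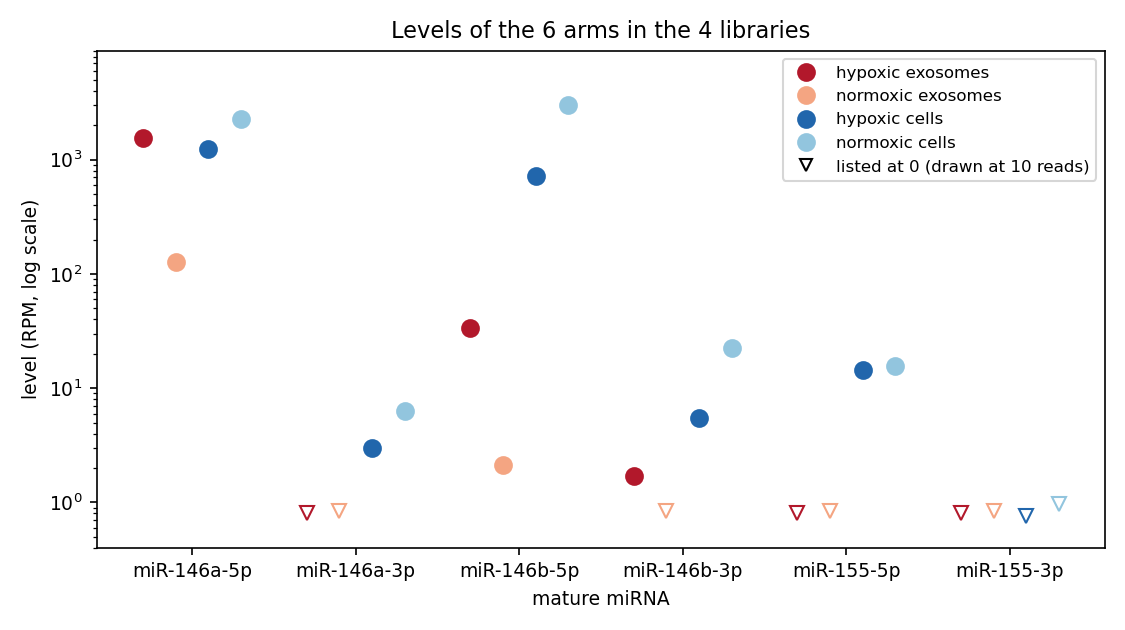
Level of each of the 6 arms (RPM, log scale) in the 4 libraries, 1 point per library, with open triangles for values listed at 0, drawn at the level of 10 reads. miR-146a-5p stands at 1551 RPM in hypoxic exosomes while miR-146b-5p stands at 33.4 RPM there, although in normoxic cells miR-146b-5p, at 3010 RPM, is above miR-146a-5p, at 2265 RPM.

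In cells, the arms of miR-146b had far lower RPM in hypoxia than in normoxia, the arms of miR-146a moderately lower RPM, and miR-155-5p nearly equal RPM. Of the 5 arms identified in both libraries, 3 had a ratio of hypoxia to normoxia below 0.5, the study's limit for a DE (differentially expressed) miRNA, among 316 miRNAs of which 27.8% were below 0.5 and whose median ratio was 0.612. The ratio of rno-miR-146b-5p was 0.237 (95% counting interval 0.232 to 0.243), and 6 of the 316 miRNAs had a lower one. That of rno-miR-146b-3p was 0.245 (0.186 to 0.320), the next lowest. Hence both arms of this hairpin stood near the low end of all miRNAs, and their intervals overlap.

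The ratio of rno-miR-146a-5p in cells was 0.553 (0.542 to 0.564), within the limits, and that of rno-miR-146a-3p was 0.475 (0.312 to 0.714), below 0.5 by its value but with an interval that spans 0.5. By value both lay below the median of all miRNAs (0.612) and above both arms of miR-146b. The interval of rno-miR-146a-3p, however, spans that median and reaches down to the upper end of that of rno-miR-146b-3p. rno-miR-155-5p had a ratio of 0.928 (0.749 to 1.15), which counting error alone does not separate from 1, and 49 of the 316 miRNAs had a higher one. Scaled to the miRNA total, rno-miR-146b-5p (0.450) and rno-miR-146b-3p (0.465) were still below 0.5 by value. The interval of rno-miR-146b-3p, scaled in the same way, spans 0.5, and that of rno-miR-146b-5p does not. On that scale rno-miR-146a-3p was at 0.899, rno-miR-146a-5p at 1.05 and rno-miR-155-5p at 1.76. Directions for miR-146a-5p and miR-155-5p in cells therefore depended on the scale: relative to the median miRNA they were at 0.904 and 1.52.

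In exosomes only the guides of miR-146a and miR-146b had a ratio of hypoxia to normoxia, and both were above 2, among 73 miRNAs of which 84.9% were above 2 with a median of 6.73. rno-miR-146a-5p had a ratio of 12.2 (95% counting interval 11.6 to 12.8), and 19 of the 73 had a higher one. rno-miR-146b-5p had a ratio of 15.8 (10.6 to 24.8), with 9 higher, from only 25 reads in normoxia. The 2 intervals overlap. Scaled to the miRNA total the ratios were 1.58 for rno-miR-146a-5p and 2.06 for rno-miR-146b-5p, so that both also took a larger share of the miRNA reads in hypoxic than in normoxic exosomes. The RPM ratios and the scaled ratios differ by a factor of 7.69, the ratio of summed miRNA RPM between the 2 exosome libraries. The reason for the difference in that sum was not tested.

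**Figure D2:**
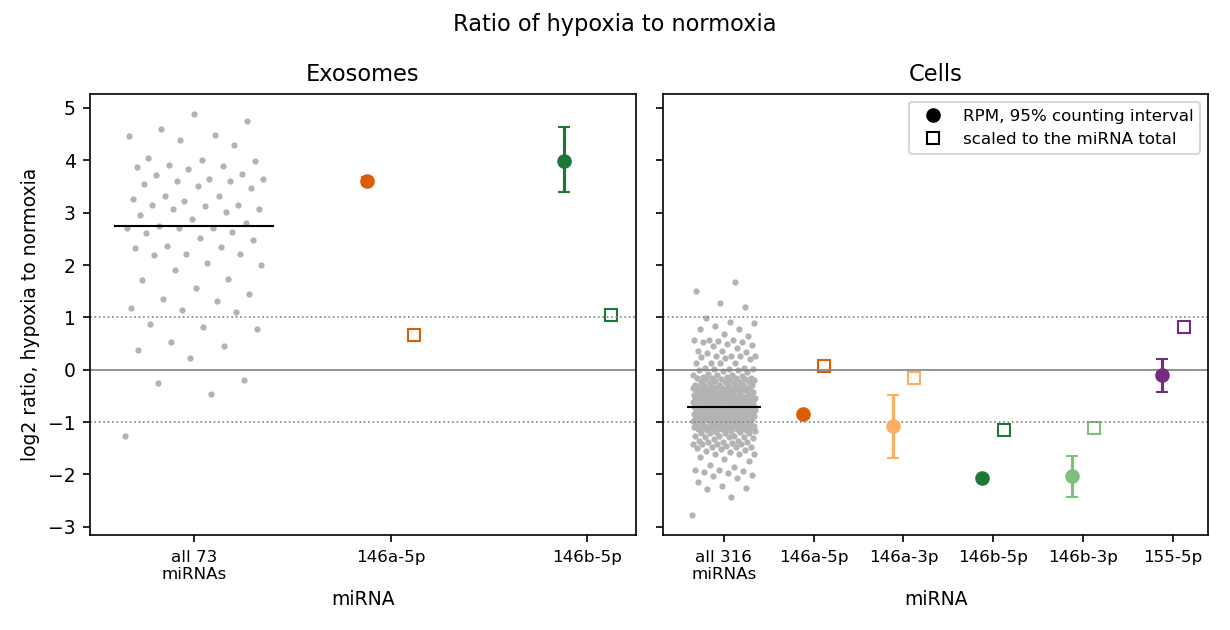
log2 ratio of hypoxia to normoxia in exosomes (left) and cells (right) for all miRNAs identified in both libraries (grey, with the median as a line) and for the arms of miR-146 and miR-155 (filled circles: RPM with 95% counting interval, open squares: scaled to the miRNA total), with dotted lines at ratios of 2 and 0.5. Both guides of miR-146 lie above the median in exosomes (ratios 12.2 and 15.8 against 6.73). By value both arms of miR-146b lie below 0.5 in cells on either scale. Scaled to the miRNA total, the interval of miR-146b-3p (not drawn) spans 0.5.

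Set against their own cells, exosomes had a higher RPM of rno-miR-146a-5p under hypoxia. Its ratio of exosomes to cells was 1.24 (95% counting interval 1.21 to 1.26) under hypoxia, where 13 of the 138 miRNAs identified in both had a ratio above 1 and the median was 0.0493. The liver marker miR-122-5p was also among the 13, with a ratio of 2.65, and miR-486 had the highest, 16.0. The part of sources other than the H9c2 cells in these ratios was not tested. miRNAs were a far smaller part of the reads in exosomes than in cells, so most ratios were below 1. Under normoxia the ratio of rno-miR-146a-5p was 0.0563 (0.0534 to 0.0593), rank 17 of 73 with a median of 0.00304.

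rno-miR-146b-5p lay close to the median under hypoxia, with a ratio of exosomes to cells of 0.0467 (0.0422 to 0.0515), rank 72 of 138. Under normoxia its ratio was 0.000700 (0.000453 to 0.00103), below the median, at rank 57 of 73. rno-miR-146b-3p had a ratio of 0.309 (0.181 to 0.508) under hypoxia, rank 34 of 138, from 21 reads in exosomes. Of the arms of the group identified in both libraries, 2 of 3 had a ratio below 0.5 under hypoxia and 2 of 2 under normoxia, against 84.1% and 93.2% of all miRNAs. Those counts are thus close to the background, and what set the 2 guides apart was their position within it. Scaled to the miRNA total, the ratios of rno-miR-146a-5p were 37.8 under hypoxia and 25.1 under normoxia, and those of rno-miR-146b-5p were 1.43 and 0.312.

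The arms listed at 0 in exosomes give only limits. rno-miR-155-5p was under 0.809 RPM in hypoxic exosomes, a ratio to hypoxic cells below 0.0560, and under 0.843 RPM in normoxic exosomes, a ratio to normoxic cells below 0.0541. Both limits are above the median ratio of all miRNAs in the same comparison (0.0493 and 0.00304), so that at this depth a miRNA of its level in cells and of median ratio would also be listed at 0. The limits of rno-miR-146a-3p were wider, 0.269 under hypoxia and 0.133 under normoxia. For rno-miR-146b-3p, listed at 0 in normoxic exosomes only, the limit under normoxia was 0.0376, the lowest of the 3 arms and also above the median. Its listing limit in normoxic exosomes was 0.496 times its level in hypoxic exosomes.

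**Figure D3:**
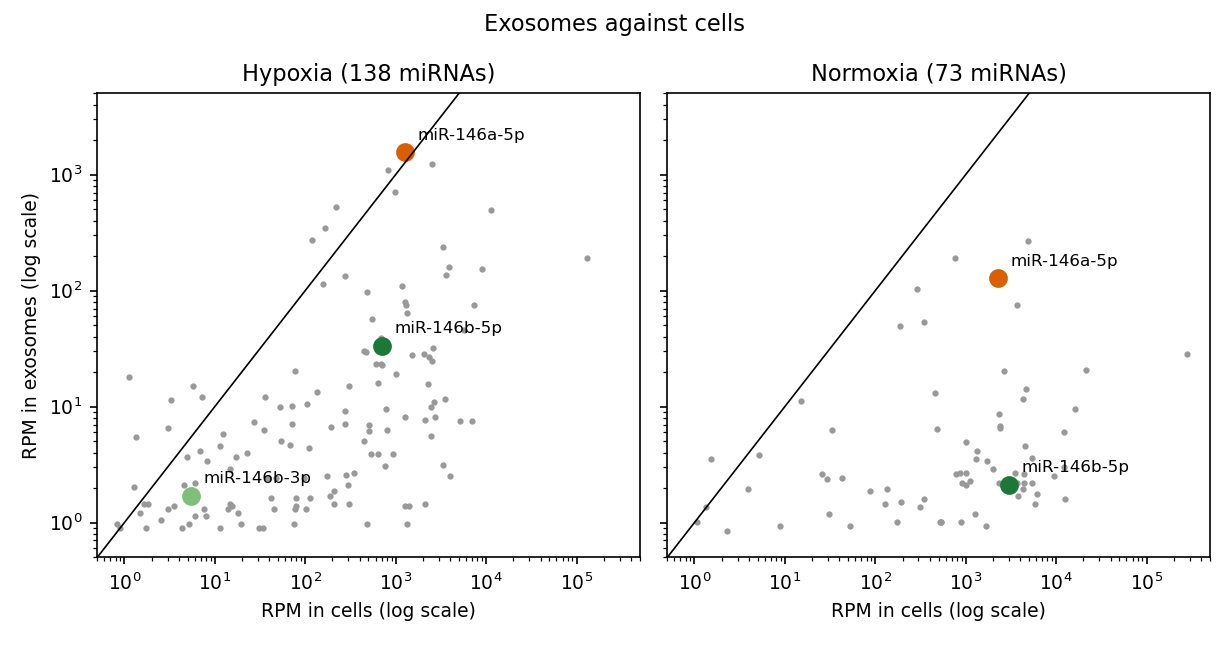
RPM in exosomes against RPM in cells (both on log scales) under hypoxia (left, 138 miRNAs) and normoxia (right, 73 miRNAs), 1 point per miRNA identified in both libraries, with a line at equal RPM. miR-146a-5p lies just above the line under hypoxia (ratio 1.24), and miR-146b-5p, with 715 RPM in cells against 1253 RPM for miR-146a-5p, lies far below it (ratio 0.0467).

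The ratio of the 2 guides within a library does not depend on the RPM scale. For each read of rno-miR-146b-5p there were 46.5 reads of rno-miR-146a-5p in hypoxic exosomes (95% counting interval 42.2 to 51.4) and 60.5 in normoxic exosomes (40.8 to 93.8), compared with 1.75 in hypoxic cells (1.71 to 1.80) and 0.752 in normoxic cells (0.740 to 0.765). Exosomes of both conditions therefore held almost only miR-146a-5p of this seed family (97.9% of the reads of both guides in hypoxia and 98.4% in normoxia), whereas in cells neither guide exceeded the other by 2 times. The ratio of the guides in exosomes was 26.5 times (24.0 to 29.4) that in cells under hypoxia and 80.4 times (54.2 to 125) under normoxia. Between hypoxic and normoxic cells it differed by 2.33 times (2.26 to 2.40), with miR-146a-5p in excess in hypoxia and miR-146b-5p in excess in normoxia. Between hypoxic and normoxic exosomes it differed by 0.769 times (0.490 to 1.16), which the counting error covers.

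**Figure D4:**
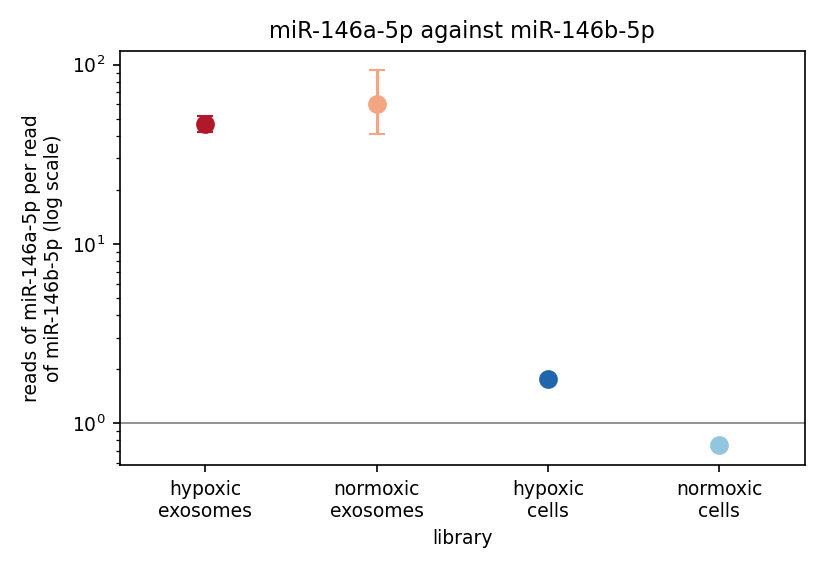
Reads of miR-146a-5p per read of miR-146b-5p in each library (log scale), with 95% counting intervals, some smaller than the points, and a line at equal reads. The exosome libraries stand at 46.5 and 60.5, and the libraries of cells at 1.75 and 0.752, on either side of the line.

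Other miRNAs with a common seed served as a comparison, chosen after the ratio of the guides had been seen. Under normoxia 25 pairs of miRNAs shared a seed and were identified in both libraries, and the exosome to cell ratios of the members of a pair differed by a median of 1.71-fold. The pair of miR-146 guides differed most, by 80.4-fold, and the next, miR-100-5p and miR-99b-5p, by 6.34-fold. Under hypoxia 40 pairs differed by a median of 3.09-fold, and the miR-146 guides were the second of them at 26.5-fold, after let-7i-5p and let-7f-5p at 27.2-fold. Pairs of 1 family share members and are not independent, and members of a family can share reads. Both members also needed 10 reads in exosomes, which limits the fold when the member of higher ratio is scarce there. In normoxic exosomes that limit was 0.843 RPM, with miR-146a-5p at 127 RPM and miR-100-5p at 6.74 RPM. The part of this limit in the order of the pairs was not tested.

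**Figure D5:**
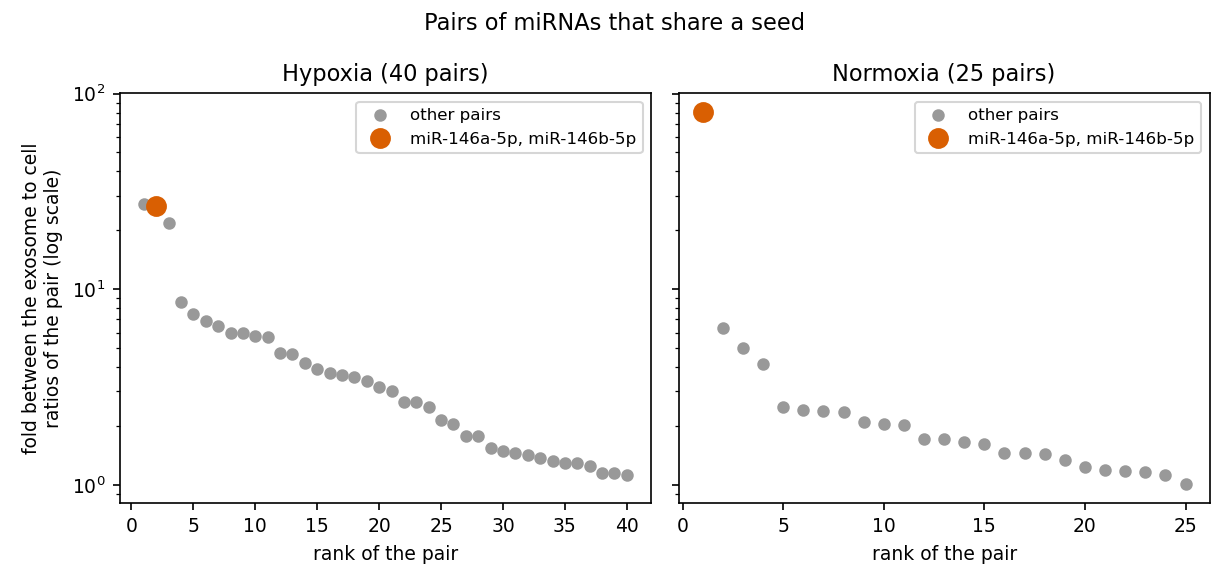
Fold between the exosome to cell ratios of the members of each pair of miRNAs with the same seed (log scale), pairs ordered by that fold, under hypoxia (left, 40 pairs) and normoxia (right, 25 pairs). The miR-146 guides stand first under normoxia at 80.4-fold and second under hypoxia at 26.5-fold, against medians of 1.71 and 3.09.

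The arms of each hairpin were also compared within a library. In cells the 5p arm of miR-146a exceeded its 3p arm by 416 times in hypoxia (95% counting interval 305 to 583) and by 357 times in normoxia (280 to 462). For miR-146b the excess was 130 times in hypoxic cells (103 to 166) and 134 times in normoxic cells (118 to 154). Neither differed between conditions beyond counting error, since hypoxia to normoxia of the arm ratio was 1.17 (0.775 to 1.77) for miR-146a and 0.968 (0.740 to 1.28) for miR-146b. In hypoxic exosomes, however, rno-miR-146b-5p exceeded rno-miR-146b-3p by only 19.6 times (12.7 to 32.0), 0.151 times the ratio in hypoxic cells (0.0908 to 0.261), a value that rests on 21 reads of the 3p arm. The other hairpin, miR-146a, went the opposite way. Its 5p arm had 19162 reads in hypoxic exosomes and its 3p arm under 10. The arm ratio there was therefore above the 416 of hypoxic cells. The arm ratio of miR-155 could not be given, because its 3p arm was listed at 0. In cells rno-miR-146a-5p had 86.7 reads per read of rno-miR-155-5p in hypoxia (75.2 to 100.5) and 145 in normoxia (125 to 171), so that the excess over miR-155-5p was smaller in hypoxia, by 0.596 times (0.480 to 0.739).

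Over the 4 libraries the guides of miR-146 had different patterns. Likeness was measured as the distance between log2 RPM profiles, each centred on its own mean, among the 71 miRNAs identified in every library, and describes 4 libraries only. The nearest to rno-miR-146a-5p were miR-125b-1-3p (distance 1.06), miR-22-3p (1.20), miR-3557-5p (1.23), miR-760-3p (1.29) and miR-129-5p (1.39). Nearest to rno-miR-146b-5p were miR-143-3p (0.943), miR-148b-3p (1.17), miR-24-2-5p (1.21), let-7i-5p (1.21) and miR-30a-5p (1.23). The lists had no member in common. rno-miR-146b-5p itself lay at a distance of 5.60 from rno-miR-146a-5p, rank 48 of 70 and above the median distance of 4.67.

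A list of 12 other miRNAs linked to NF-kB or inflammation, taken from general knowledge, gave the setting of the group. In cells 11 were identified in both libraries, of which 3 had a ratio of hypoxia to normoxia below 0.5 (27.8% of all miRNAs did) and 0 above 2, and their median of 0.593 was close to the 0.612 of all miRNAs. miR-9a-5p, which is induced with miR-146a by bacterial lipopolysaccharide in human monocytes, had the lowest ratio (0.316), with 8.13 RPM in hypoxic and 25.8 RPM in normoxic cells. miR-31a-5p had the highest (1.27) and miR-132-3p had 0.869. In exosomes 8 were identified in both libraries, with 6 above 2 (84.9% of all miRNAs were), 0 below 0.5 and a median of 5.69 against 6.73 for all miRNAs. miR-147 had the highest ratio in exosomes (14.2), with 20.3 RPM in hypoxic and 1.43 RPM in normoxic exosomes. The ratio of exosomes to cells was below 0.5 for 8 of 8 in either condition, close to the share of all miRNAs (84.1% under hypoxia and 93.2% under normoxia), and the highest was 0.418 for miR-9a-5p under hypoxia. miR-223-3p, an abundant miRNA of myeloid cells, was listed at 0 in all 4 libraries.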

How the data were processed

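Small RNA of 4 libraries, 1 per group, was sequenced by the authors on an Illumina platform after adaptor ligation and PCR. The table that the authors deposited gives RPM values for 765 mature miRNAs of rat, and the genome build in the submitters' processing notes is Rnor 6.0. No source used here gives the aligner, the counter or which reads set the scale. Reads were recovered from the RPM steps, and used for counting intervals (Clopper-Pearson for shares and ratios, conditional exact for a ratio of ratios) and not for a count model. Identified means at least 10 reads, and a ratio past the fold, above 2 or below 0.5, needed that in each of the 2 libraries. Recovery, intervals of ratios and the trimmed mean of M values were tested on simulated Poisson counts. This covered the 2 comparisons of hypoxia to normoxia and set no overall shift between libraries, unlike these data. The other scalings and the comparisons of exosomes to cells were not simulated.

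Members, lists and the rule for named miRNAs (the 6 arms, the 5 nearest patterns, the NF-kB list and seed relatives) were chosen with earlier results of these data known, and the comparison with other seed pairs, for which 690 of 765 names matched RefSeq, was added afterwards. Alternatives were 4 other scalings (miRNA total, the same without miR-21-5p, median ratio, trimmed mean of M values with 30% and 5% trimmed), folds of 1.5 and 3, a minimum of 50 reads, RPM + 1 and summed guides. Tables were handled in Python 3.11.15 with pandas 2.3.3, intervals were computed with scipy 1.17.1 on numpy 2.4.6, and plots were drawn in matplotlib 3.10.9.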

Additional observations from a re-analysis of the deposited data

Results flagged for a closer look

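On the RPM scale, for rno-miR-146a-5p and rno-miR-146b-5p the single hypoxic library lay on opposite sides of its normoxic library in exosomes and in cells, and the difference between exosomes and cells was not tested. The ratio of hypoxia to normoxia of miR-146a-5p was 12.2 in exosomes and 0.553 in cells, and that of miR-146b-5p was 15.8 in exosomes and 0.237 in cells. Of all miRNAs, 69 of 73 were above 1 in exosomes and 274 of 316 were below 1 in cells. These counts were taken separately, and miRNAs that did both were not counted. Scaled to the miRNA total, miR-146a-5p was at 1.58 in exosomes and 1.05 in cells, on the same side, and miR-146b-5p at 2.06 in exosomes and 0.450 in cells, on opposite sides. The number of miR-146a-5p reads per read of miR-146b-5p also went opposite ways, by 0.769 times in exosomes and 2.33 times in cells, of which the value in exosomes was within counting error of 1.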

How the results depend on the processing

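Ratios between libraries depended on the scale, and ratios within a library did not. The log2 shift by which the miRNA total moved each ratio was 2.94 in exosomes and -0.92 in cells for hypoxia to normoxia, and -4.93 under hypoxia and -8.80 under normoxia for exosomes to cells. Of 2 arms above 2 in exosomes, 1 (miR-146b-5p) was above it by value under each of the 4 other scalings, and 1 (miR-146a-5p) with a minimum of 50 reads. Under those scalings miR-146b-5p was at only 2.02 to 2.35, from 25 reads in normoxia. Its counting interval, scaled in the same way, spans 2 each time. Of 2 arms below 0.5 for exosomes to cells under hypoxia, 0 were under each of the 4 scalings, 1 with a minimum of 50 reads and 4 with RPM + 1 and no minimum. Under normoxia 1 of 2 was below 0.5 with each scaling and with the minimum of 50 reads, and 5 with RPM + 1. In cells the count of 3 was 2 to 4 in all alternatives. For exosomes to cells under hypoxia, miR-146b-3p turned to 9.46 scaled to the miRNA total, 4.98 scaled to it without miR-21-5p, 6.28 by the median ratio and 5.85 with trimmed M values, and miR-146b-5p to 1.43 scaled to the miRNA total. Under normoxia miR-146a-5p turned to 25.1, 11.6, 18.5 and 8.16 in the same order of scalings. These shifts follow from the scaling itself. Summing the 2 guides gave 0.373 for hypoxia to normoxia in cells and 0.805 for exosomes to cells under hypoxia. The patterns over 4 libraries were the same on shares of miRNA reads, by construction. Depth limits normoxic exosomes most, with 13598 miRNA reads. No paired analysis was possible because each group was 1 library.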
